A study of Caenorhabditis elegans with 2 samples.

Results

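Autosomal one-directional gene starts were examined in a map of where the nuclear hormone receptor NHR-77 of *Caenorhabditis elegans* attaches to the genome. They are regions on chromosomes other than X whose summit, the position of highest signal, lies within 500 bp of the annotated 5′ end of a protein-coding gene. Summits lying between 2 gene starts that point away from each other, both within 500 bp, were set apart as divergent promoters. Of the 30000 regions that the authors listed for both replicates pooled, 5372 met this rule, and they belonged to 4934 genes. The rule used position only, so the signal of the members was free to vary. By chromatin immunoprecipitation sequencing (ChIP-seq), DNA attached to eGFP-tagged NHR-77 was read from whole L2 larvae of both sexes, strain OP353, which carries the mutation unc-119(tm4063) III and the transgene insertion wgIs353. There was 1 group with 2 biological replicates, which share these alleles. No condition was compared, whole animals mix all tissues, and a protein made from a transgene may differ in level from the native one.

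A gene start is where RNA polymerase begins, and the stretch just upstream, the promoter, is where many transcription factors bind. Worm promoters are compact, genes are closely packed, and many genes lie in operons, in which downstream genes share the promoter of the first gene. Many worm mRNAs also have their first stretch replaced by a short leader in trans-splicing, so the annotated 5′ end can lie downstream of the place where transcription begins. Nuclear hormone receptors bind DNA through a pair of zinc fingers, and many of them recognise short sequences of the AGGTCA type. The worm has a large family of them, and the tissue role of NHR-77 is not taken as known here.

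The authors' threshold on reproducibility between replicates left 415 of the 30000 pooled regions, which is 1.38%, and these were the 415 regions of highest pooled signal. The signal is the score of the authors' peak caller, on a scale that is not stated, and the files do not give read numbers, so the depth is unknown. Members accounted for 152 of the 415, or 36.6%, at 151 genes, and are called strong members in what follows. The share of members past the threshold was 2.83% (95% Clopper-Pearson interval 2.40 to 3.31, for counting error only). Regions of 1 list share their libraries and are not replicates, so shares are described and no test over regions was made. Among the 23233 nuclear regions of replicate 1 the 415 highest are 1.79%, and members reached 143 of 4227, or 3.38% (2.86 to 3.97). In replicate 2 the 415 highest are 1.38% of the list, and members reached 150 of 5309, or 2.83% (2.40 to 3.31). The members' share was above the background in the pooled list and in both replicates.

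The members that stood highest are shown first by their sequence, because base composition and short words at the summit differed between the strong members and the others. Each line gives 100 bp centred on the summit, 5′ to 3′ along the strand of the gene, from the RefSeq assembly of build ce11. They are the 8 members of highest signal, on the chromosomes shown, whose 100 bp overlap no exon. They lie at chrIII:3867520-3867619 on the plus strand (rpl-3), chrII:10563517-10563616 on the minus strand (cdc-48.1), chrV:777467-777566 on the plus strand (R09E12.9) and chrIII:7854627-7854726 on the plus strand (rpl-35). The others lie at chrV:9546965-9547064 on the plus strand (his-37), chrII:14561754-14561853 on the minus strand (mog-4), chrV:10897325-10897424 on the minus strand (sec-61.G) and chrIV:15471573-15471672 on the minus strand (ntl-11). Capitals mark the 10 words of 6 bases, read on either strand, whose share of windows was higher in strong than in other members by the largest margin, with values given further on.
rpl-3: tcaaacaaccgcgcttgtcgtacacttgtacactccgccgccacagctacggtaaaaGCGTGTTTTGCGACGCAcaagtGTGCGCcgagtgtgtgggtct
cdc-48.1: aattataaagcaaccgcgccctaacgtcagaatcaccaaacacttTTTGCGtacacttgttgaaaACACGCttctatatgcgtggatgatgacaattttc
R09E12.9: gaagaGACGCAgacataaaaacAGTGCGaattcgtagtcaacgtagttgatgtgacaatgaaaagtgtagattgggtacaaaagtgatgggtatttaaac
rpl-35: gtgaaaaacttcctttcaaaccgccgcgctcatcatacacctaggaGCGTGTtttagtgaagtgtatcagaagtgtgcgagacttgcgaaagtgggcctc
his-37: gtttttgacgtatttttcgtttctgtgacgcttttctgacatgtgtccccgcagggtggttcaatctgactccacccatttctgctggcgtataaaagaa
mog-4: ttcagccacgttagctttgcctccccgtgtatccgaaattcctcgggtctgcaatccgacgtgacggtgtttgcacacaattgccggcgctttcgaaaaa
sec-61.G: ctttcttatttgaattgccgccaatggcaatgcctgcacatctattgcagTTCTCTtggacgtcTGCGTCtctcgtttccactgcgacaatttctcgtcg
ntl-11: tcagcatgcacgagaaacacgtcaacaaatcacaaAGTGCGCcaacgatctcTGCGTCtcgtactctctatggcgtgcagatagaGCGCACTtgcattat
Capitals appear in 6 of the 8 sequences. The word GACGCA, or its reverse complement TGCGTC, stands in rpl-3, R09E12.9, sec-61.G and ntl-11, whereas his-37 and mog-4 hold none of the 10 words within these 100 bp.

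The highest member lay at rpl-3, which encodes a protein of the large ribosomal subunit. Its pooled signal was 186.4, with 43.3 in replicate 1 and 144.9 in replicate 2, and its summit lay 285 bp upstream of the start. At cdc-48.1, which encodes an ATPase that extracts proteins from complexes and membranes, the pooled signal was 183.6, with 47.9 in replicate 1 and 134.4 in replicate 2. These members ranked 9 and 3 among the nuclear regions of replicate 1 and 4 and 6 in replicate 2, so both stood near the top of each list. The third, at R09E12.9, had a pooled signal of 126.9, with 45.4 in replicate 1 and 79.2 in replicate 2, and lay 84 bp upstream. The fourth, at cmtr-1, a gene for an enzyme that methylates mRNA caps, had 115 in the pool, 39.7 in replicate 1 and 65.6 in replicate 2. Scores of different lists depend on depth and are comparable only within a list.

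The member at rpl-35, another gene of the large ribosomal subunit, had a pooled signal of 107.4, with 29.3 in replicate 1 and 80.5 in replicate 2. The member at rps-1, of the small subunit, had 101.3, with 29.4 in replicate 1 and 68.2 in replicate 2. The member at sec-61.G, part of the channel that brings proteins into the endoplasmic reticulum, had 91.8, with 20.5 in replicate 1 and 70.4 in replicate 2. All 3 ranked 51 or higher among the nuclear regions of both replicates. The member at iff-2, which encodes the translation factor eIF5A, had a pooled signal of 75.3, with 21.3 in replicate 1 and 49.7 in replicate 2. The member at icd-2, a subunit of the complex that meets new protein chains at the ribosome, had 66.1, with 8.85 in replicate 1 and 57.8 in replicate 2. It ranked 42 in replicate 2 but 491 in replicate 1, and it was the 1 member of the 20 highest outside the 415 highest of replicate 1.

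The histone gene his-37 had a pooled signal of 95, with 29.7 in replicate 1 and 65.4 in replicate 2. Histone genes are near-identical copies, and how the authors treated reads that fit several copies is not given in the sources used here. At mog-4, which encodes a splicing helicase, the signal was 93.7 in the pool, 26.3 in replicate 1 and 70.6 in replicate 2. A further listed region 407 bp upstream of mog-4 had a pooled signal of 51.9, which made mog-4 the 1 gene with more than 1 member past the threshold. The entries overlap and meet the same regions of the replicates, and with overlapping entries merged there were 151 members past the threshold. The members at ntl-11, a subunit of the CCR4-NOT complex that shortens mRNA tails, and ints-4, a subunit of the Integrator complex that cleaves nascent RNA, had 90.8 and 88.5 in the pool. In replicate 1 they had 18.5 and 22.3, and in replicate 2 they had 70.2 and 64.9. At rpb-11, a subunit of RNA polymerase II, the signal was 85.2 in the pool, 29.1 in replicate 1 and 58.7 in replicate 2.

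The other genes of the 20 highest were cox-5A, a subunit of cytochrome c oxidase (pooled signal 84.8), tasp-1, which encodes a threonine protease (68.5), Y39B6A.43 (82.1), eelo-2 (80.4), tos-1 (72.3) and Y48B6A.1 (69.5). In replicate 1 these 6 members ranked between 39 and 214, and in replicate 2 between 29 and 55. Across all 152 the pooled signal ran from 27.3 to 186.4 with a median of 38.3, while the other 5220 members ran from 5.72 to 27.02 with a median of 8.16. The lowest inside the threshold were at jun-1, a gene for an AP-1 type factor, with 27.6, and at rbm-5 and K04B12.2, both with 27.3. The highest outside it were at nhr-178, a nuclear receptor gene, with 27.02, and at atx-2 and eif-2Bdelta, with 26.95 and 26.9. Signal thus changed without a gap across the threshold.

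Members were a smaller share of regions further down the lists. They made up 42% of the pooled regions of rank 1 to 100 (32.2 to 52.3), 34.9% of ranks 101 to 415 (29.7 to 40.5) and 29.2% of ranks 416 to 1000 (25.6 to 33.1). From rank 1001 to 5000 the share was 21.1%, and from 20001 to 30000 it was 16.1%. In replicate 1 the shares of the same bins at the top were 35%, 34.3% and 22.9%, and in replicate 2 they were 39%, 35.2% and 25.5%. The side of the start changed with them. In the pooled list 95.2% of members among ranks 1 to 100 lay upstream, 77.2% among ranks 416 to 1000, and 50.1% among ranks 20001 to 30000, an even split between the sides.

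**Figure D1:**
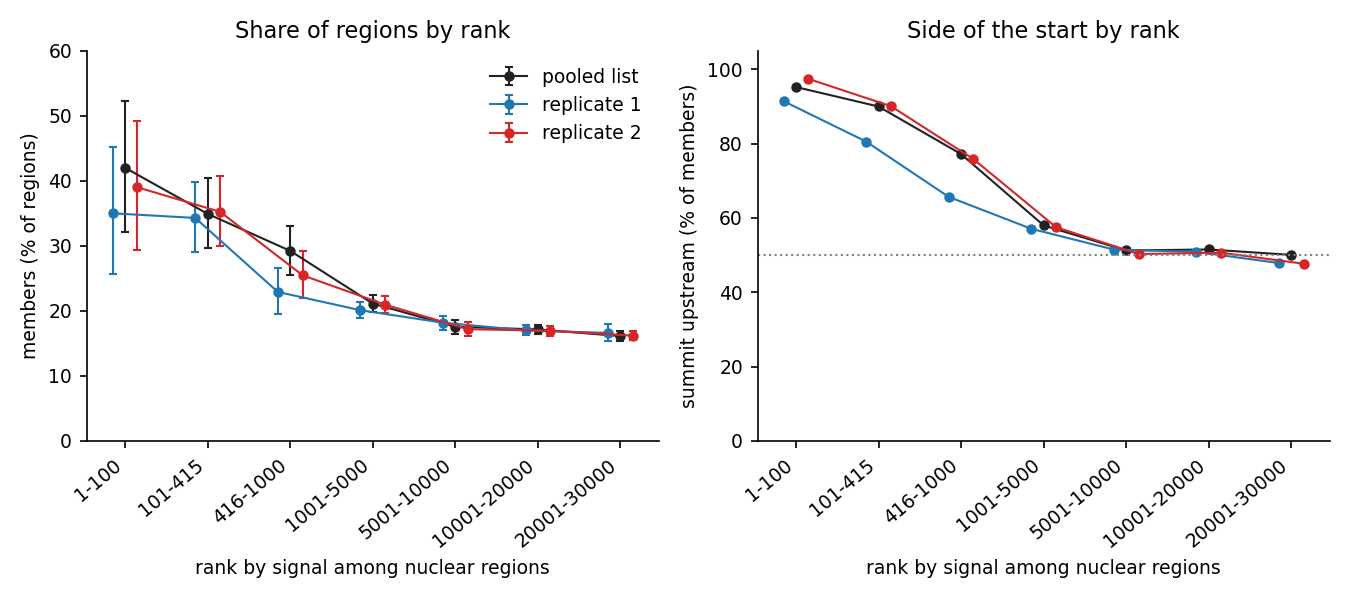
Left, members as a percentage of the regions in each bin of rank by signal, in the pooled list and each replicate's own list, with 95% Clopper-Pearson intervals for counting error; right, the percentage of those members whose summit lies upstream of the start, with a dotted line at 50%. The list of replicate 1 ends within the last bin. All 3 lists fall from 35% or more in the first bin to near 16% in the last, and the upstream share falls from over 90% to near 50%.

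Members past the threshold lay in a band just upstream of the start. Of the 152, 139 had their summit upstream, or 91.4% (85.8 to 95.4), against 2762 of the other 5220, or 52.9% (51.6 to 54.3). Their median position was -205 bp, and the quartiles were -280 and -110.5 bp, while the median of the others was -26 bp. The share past the threshold was highest between -300 and -200 bp, with 51 of 611 members, or 8.35% (6.28 to 10.8). It was 5.35% between -200 and -100 bp and 3.94% in the last 100 bp before the start. Farther out, between -500 and -400 bp, it was 1.72%. Downstream it fell to 1.36% in the first 100 bp and 0.620% in the next, and between 200 and 300 bp it was 0 of 488, which allows a share of up to 0.753% (exact 95% interval). In each replicate alone the upstream share of the 415 highest was 83.2% for replicate 1 and 92.0% for replicate 2.

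**Figure D2:**
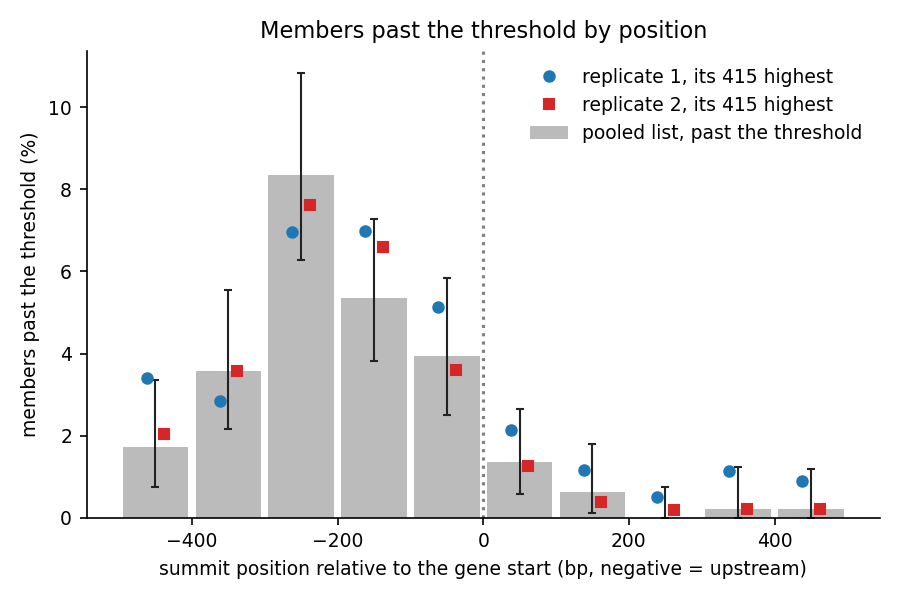
Percentage of members past the threshold by position of the summit relative to the gene start in 100 bp bins, negative being upstream. Bars give the pooled list with 95% Clopper-Pearson intervals, and points give the share of each replicate's members among its own 415 highest regions. The bar between -300 and -200 bp is the highest at 8.35%, and every bin downstream of the first 100 bp is at most 1.17% in all 3 lists.

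Strong members were rare in coding sequence. Outside protein-coding genes lay 126 of the 152, or 82.9%, and 5.17% of the 2437 intergenic members were past the threshold. Of 1164 members with the summit in a coding exon, 2 were past it, or 0.172% (0.0208 to 0.619). Of 1162 in introns 11 were, or 0.947%, and of 354 in 5′ untranslated regions 10 were, or 2.82%. The member at ints-4, 38 bp downstream of the start, and that at eef-1B.1, a gene for a translation elongation factor, 12 bp downstream, were among those in 5′ untranslated regions.

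At the edge of the rule the values ran on evenly. Of 88 members whose summit lay 491 to 500 bp from a start, 1 was past the threshold, and their median signal was 7.96 (range 5.74 to 33.5). Of 101 autosomal regions 501 to 510 bp away, just outside the rule, 1 was past it, and their median was 7.83 (range 5.74 to 41.9).

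Members were grouped by the gene lying upstream of their start. Of 1379 members with a neighbour on the same strand ending within 500 bp, 42 were past the threshold, or 3.05% (2.20 to 4.10). With such a neighbour farther away it was 37 of 1755, or 2.11% (1.49 to 2.89). With a head-to-head neighbour it was 61 of 1861, or 3.28% (2.52 to 4.19), and with a start inside or overlapping another gene it was 12 of 377, or 3.18% (1.66 to 5.49). The intervals of these 4 classes overlap in the pooled list. In replicate 1 the shares, in the same order, were 3.03%, 2.42%, 4.48% and 3.56%. In replicate 2 they were 3.34%, 2.14%, 3.00% and 3.27%. The highest members of the last class were at Y71H2AM.20, with a pooled signal of 59.2, and C47E8.4, with 56.4, whose starts overlap the genes cox-6B and hsp-90.

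Among tandem genes the share of strong members differed with the length of the gap to the neighbour. Where the upstream neighbour ended at most 100 bp away, the spacing usual inside operons, 3 of 343 members were past the threshold, or 0.875% (0.181 to 2.53). With a gap of 101 to 250 bp it was 11 of 541, or 2.03% (1.02 to 3.61). With a gap of 251 to 500 bp it was 28 of 495, or 5.66% (3.79 to 8.07), and with 501 to 1000 bp it was 23 of 595, or 3.87% (2.47 to 5.74). Beyond 1000 bp it was 14 of 1160, or 1.21% (0.661 to 2.02). Both replicates had the same order at the short end: 0.395% against 4.96% for gaps of up to 100 and of 251 to 500 bp in replicate 1, and 1.18% against 6.44% in replicate 2. Counting upstream summits alone, the shares were 0.690% and 8.44%. The exception of highest signal among the shortest gaps was Y39B6A.43, 75 bp from its neighbour, with 82.1. The gap classes were set after the values were seen.

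Divergent promoters, the regions most like the members, were past the threshold more often. Of 444 autosomal divergent regions, 61 were past it, or 13.7% (10.7 to 17.3), against 2.83% of members. Replicate 1 gave 15.1% against 3.38% and replicate 2 gave 13.2% against 2.83%, and the intervals did not overlap in any of the 3 lists. A summit between 2 starts is upstream of both by construction, whereas members may lie on either side. Among summits 50 to 300 bp upstream of the nearest start, a restriction added after the data were seen, the shares were 6.37% for members (5.23 to 7.68) and 14.9% for divergent regions (11.2 to 19.3). In replicate 1 they were 6.90% and 15.4%, and in replicate 2 they were 6.47% and 13.6%. Regions at X-linked starts had 28 of 955, or 2.93% (1.96 to 4.21), an interval that holds the members' share. This X class includes divergent promoters, which the members leave out, so the sets are not alike. Autosomal regions away from starts had 113 of 18847, or 0.600%.

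Head-to-head members were also grouped by the distance from the summit to the other start. Where the other start lay at most 500 bp from the summit, 4 of 111 were past the threshold, or 3.60% (0.99 to 8.97). Where it lay 501 to 1000 bp from the summit, 21 of 453 were, or 4.64% (2.89 to 7.0). Where it lay 1001 to 2000 bp away, 15 of 444 were, or 3.38% (1.9 to 5.51). Where it lay more than 2000 bp away, it was 21 of 853, or 2.46% (1.53 to 3.74), and all these intervals overlap. At rps-1 the start of ifet-1, which points the other way, was 505 bp from the summit. At Y48B6A.1 the start of rpl-43, a ribosomal protein gene, was 740 bp away, and at Y22D7AL.10 the start of hsp-60, a mitochondrial chaperone gene, was 619 bp away. Assignment of these members to 1 of the genes rests on distance alone. Of the 152 members, 8 had more than 1 gene start within 500 bp.

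The replicates shared part of the strong members. Of the 152, 72 (47.4%, 39.2 to 55.6) had a counterpart, with a summit no more than 100 bp away, in the 415 highest regions of both replicates. A counterpart was found in replicate 2 alone for 56 (36.8%), in replicate 1 alone for 10 (6.58%), and in no replicate for 14 (9.21%). For divergent regions past the threshold, 25 of 61 had a counterpart in both (41.0%, 28.55 to 54.3), an interval that holds the members' 47.4%. The split was not counted over all 415 regions past the threshold, so it cannot be called particular to the members. Overlap by at least 1 bp with a replicate's list was found for 150 strong members in replicate 1 and 152 in replicate 2. Among the 5220 other members it was found for 2002 in replicate 1 and 3732 in replicate 2. Across the 150 with a region in both, Spearman's rho between the signal values was 0.415, and Pearson's r of their log2 values was 0.52. Across the 1239 other members with a region in both, rho was 0.173 and r was 0.197. These are correlations across regions of 2 libraries, which share the genome's base composition. The strong members were set by pooled signal and reproducibility in these same replicates. Their higher overlap with the replicate lists is therefore partly fixed by that choice, and their correlation also depends on it. The overlaps and correlations are given as descriptions.

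Some strong members had little or no signal in replicate 1. The members at mboa-2 and at cpt-2, whose product takes part in bringing fatty acids into mitochondria, overlapped no region of replicate 1. The member at mrpl-28, a mitochondrial ribosomal protein gene, had a signal of 25.6 and rank 230 in replicate 2 but 2.92 and rank 13464 in replicate 1. The member at atp-1, the alpha subunit of ATP synthase, had 35.7 and rank 102 in replicate 2 but 4.21 and rank 5975 in replicate 1. The reverse case was kin-14, a protein kinase gene, with 16.9 and rank 76 in replicate 1 but 10.8 and rank 2742 in replicate 2.

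**Figure D3:**
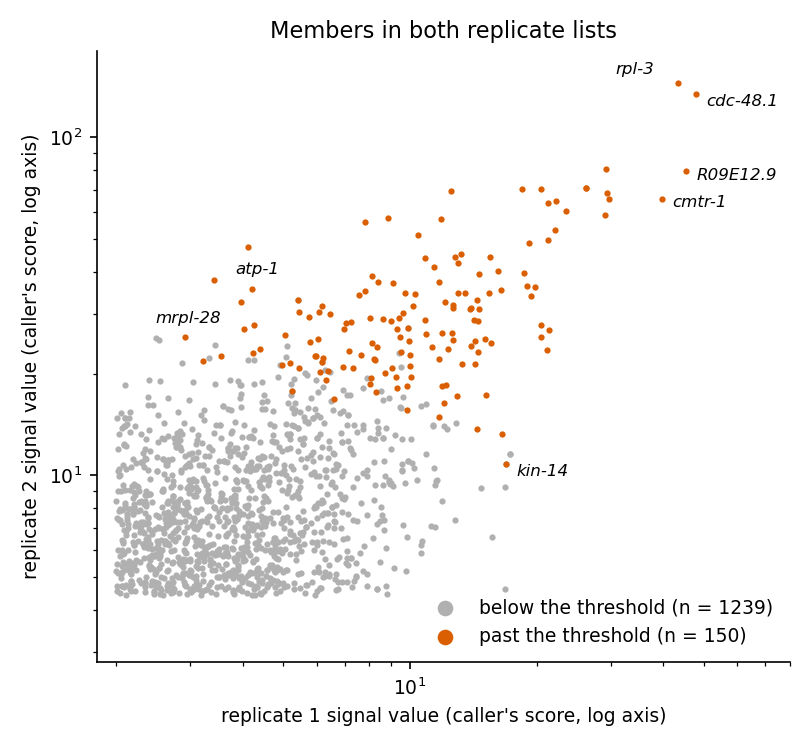
Signal value of each member that overlaps a region in both replicate lists, replicate 1 across and replicate 2 up, on log axes in units of the caller's score. Orange points are the 150 members past the threshold and grey points the other 1239. The members rpl-3 and cdc-48.1 stand highest in replicate 2, and cdc-48.1 and R09E12.9 in replicate 1. The members mrpl-28 and atp-1 are high in replicate 2 only, and kin-14 in replicate 1 only.

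Strong members were found on every autosome. The share past the threshold was 4.22% on chromosome II (45 of 1066, interval 3.10 to 5.61), 3.75% on III (35 of 934), 2.34% on I (23 of 981), 2.46% on IV (24 of 974) and 1.76% on V (25 of 1417, 1.14 to 2.59). Chromosome V carries many tandem families of receptor and enzyme genes, and the make-up of the gene sets was not matched between chromosomes.

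Cytosolic ribosomal protein genes held the most strong members of the 20 gene groups examined. Of all 4934 genes with a member, 151 had at least 1 past the threshold, or 3.06%. Of 34 cytosolic ribosomal protein genes with a member, 12 did, or 35.3% (19.8 to 53.5), and the median of their highest signal was 13.6 against 8.40 over all genes. The 12 were rpl-3, rpl-35, rps-1, rps-28, rpl-24.2, rpl-6, rps-21, rpl-38, ubl-1, rps-24, rpl-41.2 and rpl-23. Genes were placed in this group by their names. The same group had 7 of 32 genes among the highest regions of replicate 1 and 10 of 32 in replicate 2. Below the leading genes the signals were modest. At rps-28 the signal was 47.1 in the pool, 20.5 in replicate 1 and 27.9 in replicate 2, and at rpl-6 it was 36.8, 6.46 and 29.9. At rpl-24.2 and rpl-41.2 replicate 1 gave 3.41 and 3.56, with ranks 9877 and 9047, so these members rest on replicate 2. The 12 summits lay between -458 and -174 bp with a median of -292.5 bp, farther from the annotated start than the -205 bp of all 152. Within 250 bp of a start the count was 4 of 17. Ribosomal protein genes are known for high expression in growing larvae.

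Other groups that serve every cell had smaller counts. Of 27 genes for translation factors and tRNA synthetases, 4 had a member past the threshold, or 14.8% (4.19 to 33.7): iff-2, eif-3.B, eef-1B.1 and eif-3.C. Of 20 respiratory chain genes, 3 did, or 15% (3.21 to 37.9): cox-5A, cox-5B and atp-1. Of 24 chaperone genes, 3 did, or 12.5% (2.66 to 32.4): hsp-1, an Hsp70 gene with a pooled signal of 46.3, and the J-domain genes dnj-13 and dnj-9, with 55.1 and 51.9. Of 40 membrane traffic genes, 3 did, or 7.50%: sec-61.G, apb-1, an adaptor subunit of coated vesicles with 50.8, and vps-37, of a complex that sorts cargo in endosomes, with 35.1. Splicing factors had 2 of 18, mog-4 and snr-4, a core protein of spliceosomal particles with 50.6. Mitochondrial ribosomal proteins had 2 of 28, mrpl-55 with 38.4 and mrpl-28 with 30.9. Histones had 2 of 8, his-37 and his-42, the latter with 30.5 and no counterpart within 100 bp in the 415 highest of either replicate. Chromatin modifiers had 2 of 18, set-4, a histone methyltransferase gene with 44.8, and swsn-3, a subunit of a nucleosome remodeller with 31.6. The intervals of mitochondrial ribosomal proteins, splicing factors, chaperones, membrane traffic and chromatin modifiers include 3.06%.

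Transcription machinery had 1 of 21 genes, rpb-11, with 4 of 20 among the highest regions of replicate 1 and 2 of 22 in replicate 2. Cell division had 1 of 26, cdc-48.1, with 3 of 24 in replicate 1 and 1 of 19 in replicate 2. Proteasome (0 of 6), vacuolar ATPase (0 of 6) and ubiquitin system genes (0 of 13) had none, and these counts are too small to place them against the background: their upper limits were 45.9%, 45.9% and 24.7%. In replicate 1 alone the ubiquitin system had 2 of 12 among its 415 highest, and in replicate 2 it had 0 of 15. Of the 151 genes, 40 were on any of the 20 lists and 111 on none, and 35 carry only a sequence name.

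Gene groups tied to special tissues or to the environment were counted in the same way. Of 75 nuclear receptor genes with a member, 2 were past the threshold, or 2.67% (0.325 to 9.30). They were nhr-238, with 58.1 in the pool, 12.8 in replicate 1 and 44.3 in replicate 2, and nhr-119, with 33.5, 4.02 and 27.1. The latter lay 499 bp from the start, next to the limit of the rule. Homeobox and bHLH factor genes had 2 of 18, or 11.1% (1.38 to 34.7), an interval that includes 3.06%. They were ceh-38 with 41.0, at rank 5852 in replicate 1, and hlh-11 with 28.1. Detoxification enzymes had 1 of 57, the glutathione transferase gene gst-27, with 52.9 in the pool, 10.9 in replicate 1 and 43.9 in replicate 2. None was found among 33 cuticle collagen genes, which allows up to 10.6%, among 27 neuropeptide and insulin genes, up to 12.8%, or among 21 lipid metabolism genes, up to 16.1%. In replicate 1 alone, collagens had 3 of 28 genes, and neuropeptides and lipid metabolism 1 each, among its 415 highest. Of 45 tissue marker genes for intestine, hypodermis, muscle, pharynx, neurons and germline, 13 had a member and none was past the threshold. As for the 13 ubiquitin system genes, this allows up to 24.7%, so the markers cannot be placed against the 3.06%. The highest signal among them was 15.4, in the intestine list. The genes nhr-77 and unc-119, both tied to the transgene, had no member region.

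**Figure D4:**
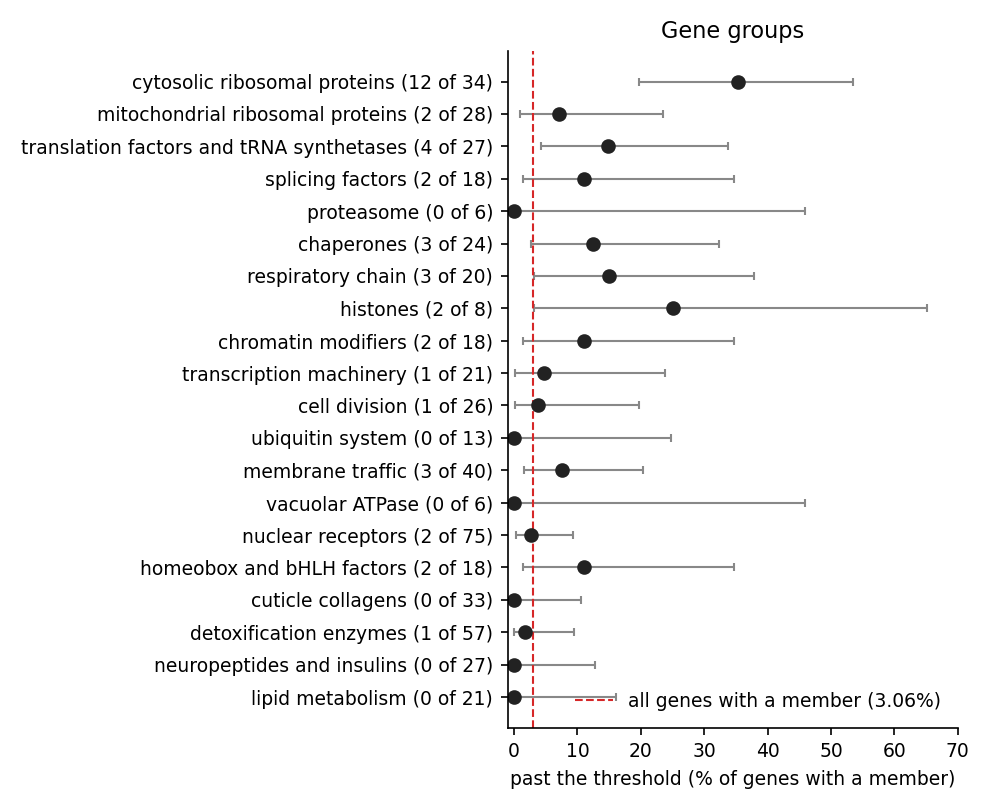
Percentage of the genes with a member that had at least 1 member past the threshold, for each of 20 gene groups, with 95% Clopper-Pearson intervals for counting error and the counts beside each name. The dashed line is the 3.06% of all genes with a member. Cytosolic ribosomal proteins stand at 35.3%, and the whole intervals of this group, translation factors and tRNA synthetases, the respiratory chain and histones lie above the line.

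Few strong members lay near short RNA genes, but a larger share of them did than of the other members. Within 500 bp of a small nucleolar RNA, small nuclear RNA, tRNA, miRNA or ribosomal RNA gene lay 11 of the 152, or 7.24% (3.67 to 12.6), against 108 of the other 5220, or 2.07%. Small nucleolar RNA genes made up 7 of the 11. The members at cmtr-1, gst-27, snr-4 and ubl-1 were among them, so each of these summits has a short RNA gene within 500 bp besides the assigned start.

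Strong members were richer in G and C. Over the 200 bp centred on the summit, those past the threshold had 41.6% ± 6.56 G+C (SD over 152 regions), against 35.1% ± 6.91 over the other 5220. The difference was there within intergenic upstream members as well, 41.7% ± 6.58 (126) against 34.5% ± 6.98 (2286). The share past the threshold was 0.0873% below 30% G+C, with 1 of 1146, then 1.11% from 30 to 35%, 3.75% from 35 to 40%, 4.31% from 40 to 45%, 7.74% from 45 to 50% and 12.7% from 50% up (21 of 165, 8.05 to 18.8). The base composition of reads can itself depend on library preparation, and the control library was not analysed here, so its part in the result was not tested. Divergent regions past the threshold had 41.7% ± 5.67 G+C, close to that of the members, and the other divergent regions 36.3% ± 6.01.

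Words with CG differed most in their share of windows. Of the 2080 words of 6 bases, counted on both strands so that a word and its reverse complement are 1, the 10 whose share in strong members exceeded that in the others by the most percentage points were picked after the values were seen. The word AGTGCG was in 26.3% of strong and 4.23% of other windows, GACGCA in 28.9% and 7.34%, and GCGCAC in 26.3% and 4.73%. The word AACGCG was in 26.3% and 5.27%, ACGCGC in 25.7% and 4.69%, and GCGCAA in 26.3% and 5.44%. The word CGCAAA was in 31.6% and 10.8%, ACACGC in 24.3% and 3.79%, and CGCGCA in 25% and 4.46%. The tenth, AGAGAA, in 40.8% and 22.4%, is the 1 word without CG. Several overlap and can be parts of 1 longer word, as in the run AGTGCGC at ntl-11 above. At least 3 of the 10 stood in 74 of 152 strong windows, or 48.7% (40.5 to 56.9), against 7.05% of the others, values that the choice of words itself raises.

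Sets that were not used to choose the words showed a smaller or like contrast. At divergent promoters at least 3 of the words were in 39.3% of regions past the threshold (27.1 to 52.7) and 23.5% of the others (19.3 to 28.1). At X-linked starts they were in 14 of 28, or 50% (30.7 to 69.3), and 8.31% of the others (6.61 to 10.3). These X-linked sets also differed in G+C, with 48.9% past the threshold and 36.65% in the others. They were not matched for G+C, so the part of base composition was not tested there. Within the members from which the words were chosen, the shares of strong and other windows by G+C were 27.8% of 18 and 3.88% of 2653 below 35%, and 52.8% of 53 and 8.17% of 1359 from 35 to 40%. From 40 to 45% they were 50% of 34 and 10.3% of 754, and from 45% up 51.1% of 47 and 16.7% of 454. The position of the matches was counted in the members from whose 200 bp windows the words were chosen, so a higher density inside those windows is partly fixed by the choice. Within 50 bp on either side there were 25.7 and 24.7 matches per kb in strong members, upstream and downstream, against 4.36 and 4.41 in the others. From 50 to 100 bp downstream there were 12.8 against 4.06, and from 100 to 150 bp 2.5 against 3.28.

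**Figure D5:**
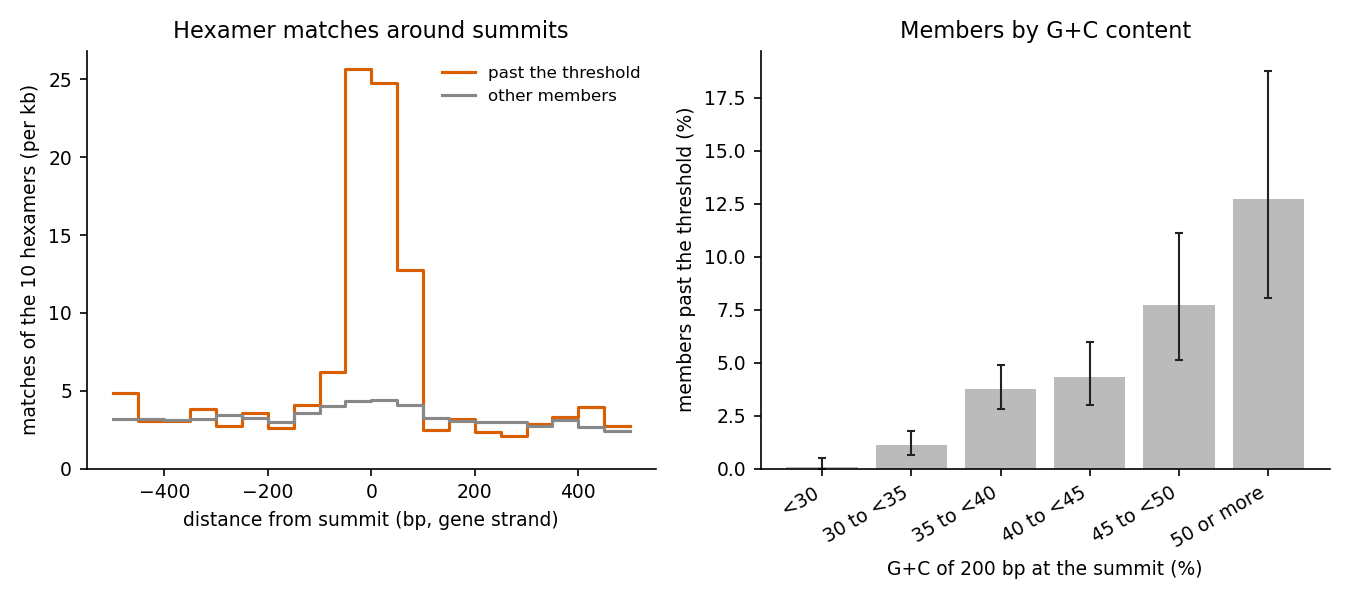
Left, matches of the 10 words per kb of sequence in 50 bp steps around the summit, along the strand of the gene, for the 152 members past the threshold and the other 5220. Right, percentage of members past the threshold by G+C content of the 200 bp at the summit, with 95% Clopper-Pearson intervals. Matches peak at 25.7 per kb beside the summit, and the share past the threshold rises from 0.0873% to 12.7% with G+C.

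Known binding words were mostly not more common at strong members. In 200 bp windows, searched on both strands, the nuclear receptor word AGGTCA was in 5 of 152, or 3.29% (1.08 to 7.51), against 5.25% of other members and 4.89% of all 30000 regions. The related AGTTCA was in 7.24% against 13.4%, with 12.6% of all regions, and AGTCCA in 5.26% against 4.43%, with 4.47%. Between 40 and 50% G+C, AGTTCA was in 7.69% (2.5 to 17.05) against 10.35%, a share inside that interval. There AGGTCA was in 4.6% (0.96 to 12.9) against 6.7%, also inside it. The GATA factor word CTTATC, familiar from intestinal promoters, was in 2 of 152, or 1.32% (0.160 to 4.67), against 10.02% of other members and 8.05% of all regions. Between 40 and 50% G+C it was in 1 of 65 against 9.34%. The splice-site word TTTCAG, found also where leaders are joined in trans-splicing, was in 21.7% against 37.8%, with 35.4% of all regions. Between 40 and 50% G+C it was in 16.9% against 30.5%. The other members lie more often inside genes, and among intergenic upstream members alone TTTCAG was in 19.05% against 33.03%. The TATA box word TATAAA was in 15.8% against 23.5%, with 22.4% of all regions, but between 40 and 50% G+C the order turned, with 13.8% against 11.9%. A window without a word says only that these letters are not in it.

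Repeats rich in GA and CG went the other way. The word GAGAGA was in 43 of 152, or 28.3% (21.3 to 36.2), against 14.6% of other members and 13.1% of all regions. The word GCGCGC was in 25 of 152, or 16.4% (10.9 to 23.3), against 2.97% and 1.99%. Between 40 and 50% G+C, GAGAGA was in 32.3% (21.23 to 45.05) against 23.6%, a share inside that interval. There GCGCGC was in 18.5% (9.92 to 30.03) against 6.29%. At divergent regions GAGAGA was in 21.3% past the threshold against 17.5%, and GCGCGC in 13.11% against 13.05%. At X-linked starts they were in 46.4% against 17.6% and in 10.7% against 2.70%. The heat shock word GAANNTTC (13.2% against 13.9%, with 14.6% of all regions), the E-box CACGTG (3.29% against 3.60%, with 3.23%) and TGACGT (7.89% against 6.63%, with 6.37%) differed by less than the counting intervals. The words GGGCGG (7.24% against 4.16%, with 3.64%), CCAAT (26.97% against 35.6%, with 36.3%) and TTTTTTTT (17.8% against 24.2%, with 26.8%) completed the 14 searched. Between 40 and 50% G+C the order turned for TTTTTTTT, at 18.5% (9.92 to 30.03) against 9.70%, and GGGCGG was in 9.23% against 8.97%. It also turned for TGACGT, at 6.15% against 10.4%, for AGTCCA, at 4.62% against 4.90%, and for GAANNTTC, at 13.8% against 9.70%. The order stayed for CCAAT, at 29.2% (18.6 to 41.8) against 35.2%, and for CACGTG, at 4.6% against 6.4%.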

How the data were processed

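The data are lists of regions in narrowPeak format on build ce11. The deposited signal value is a score set by the authors' peak caller on a scale that no source gives, and the deposited q-value column is given by the authors as −log10 of the q-value, which was at least 2.20 over the thresholded regions and served only as a check. Per the deposited text files, the relaxed lists were made by the authors from aligned reads with a control, and the thresholded list drew on the pooled and single-replicate ones; it equals the highest pooled regions. Aligner, caller and versions: not given in the sources used here. The control was not analysed here. The 23 mitochondrial regions of replicate 1 were left out of its ranks.

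Each summit was assigned to the nearest 5′ end of 19985 protein-coding genes (Ensembl release 115), and sequence came from the matching RefSeq assembly. Replicates were compared by ranks and by summits within 100 bp. Shares have Clopper-Pearson intervals at 95%, for counting error only; no test over regions was made, because the design has 1 group. Named genes were those of the 20 members of highest signal, up to 3 of highest signal of each gene list past the threshold, and the first 2 of each class of upstream neighbour; others named (the members of the ribosomal list, edges of the threshold, head-to-head examples and replicate extremes) were chosen after their values were seen. The members, the gene lists and the words were chosen with earlier results of these data known. Classification and word search were tested on simulated data. Alternatives were other start distances, region midpoints, transcript 5′ ends, merged entries, single replicates, the 208 highest regions of the thresholded list, other windows and neighbour distances, and leaving out regions near short RNA genes. Python 3.11.15, pandas 2.3.3, numpy 2.4.6, scipy 1.17.1 and matplotlib 3.10.9 were used.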

Additional observations from a re-analysis of the deposited data

How the results depend on the processing

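Of 73 values recomputed under an alternative, 52 stayed within their counting interval, 1.5 times for a count of genes, or the spread between replicates for G+C, and 21 moved. The share past the threshold was higher for divergent regions than for members in all 11 settings, by 2.34 to 6.34 times. The members' share of 2.83% was 4.01% within 250 bp of the start, 1.71% within 1000 bp, 2.39% with transcript 5′ ends, 1.64% with the 208 highest regions of the thresholded list and 6.37% for summits 50 to 300 bp upstream (added after the data were seen); with either replicate left out it was 2.83 to 3.38%. The 208 highest gave 6.31% of divergent regions, 72.7% of members high in both replicates and a G+C of 42.7%. Leaving out a replicate gave 13.2 to 15.1% of divergent regions, 83.2 to 92.0% of summits upstream and 40.5 to 41.8% G+C. Windows of 100 and 400 bp gave 46.6% and 37.6% G+C for members past the threshold. The other members were not measured with these windows, so the contrast with them is not given there. Close tandem starts, at 3.05%, were 2.08% within 1000 bp, 2.17% with the 208 highest, 1.58% with the neighbour within 250 bp, 6.74% for summits 50 to 300 bp upstream and 3.03 to 3.34% with a replicate left out. The count of ribosomal protein genes, 12 in the main setting, was 4 within 250 bp, 5 with the 208 highest, 7 for summits 50 to 300 bp upstream and 7 to 10 with a replicate left out. Fewer regions enter under a shorter distance or with the 208 highest, and the cause of the other shifts was not tested. No paired analysis was possible because there is 1 group. Depth is not given, and no interval covers it.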
